A study of Mus musculus with 8 samples.

Results

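The nuclear-encoded subunits of oxidative phosphorylation were described in the cardiac outflow tract of mouse embryos that lacked Raldh2. Members were chosen by gene name alone: every probe on the array that was not a control and whose gene name starts with Nduf, Uqcr, Atp5 or Cox4 to Cox8, or is Sdha, Sdhb, Sdhc, Sdhd, Cycs or Cyc1. The rule itself reads names and no measured value. The rule found 90 genes on 122 probes, of 36518 genes and other named transcripts on the array. Of the 90 genes, 89 could be tested, and Cox8c was not well above background on any of the 7 arrays used for the comparison.

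Both groups were E10.5 embryos (counted in embryonic days) from dams whose food held all-trans retinoic acid (RA) at 0.1 mg/g between E7.5 and E8.5, so the controls carry the rescue treatment too. One group was of genotype Raldh2-/- and the other was WT, described as littermates. Raldh2, now named Aldh1a2, is the enzyme that makes most of the embryo's RA. Each array held the RNA of a pool of 4 microdissected outflow tracts, with knockout pools 1, 2, 3 and 7 and wild type pools 1, 2, 5 and 7. Nothing states whether pools came from separate litters, so p-values measure only the spread between these pools, which may in part be technical. The labels do not give the construction of the Raldh2 allele or the strain.

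Oxidative phosphorylation is carried out by 5 protein complexes of the inner mitochondrial membrane. Complexes I and II pass electrons from NADH and succinate to ubiquinone, complex III passes them to cytochrome c, and complex IV passes them to oxygen. The proton gradient that complexes I, III and IV build drives ATP synthesis by complex V. Most subunits are encoded in the nucleus and a few in mitochondrial DNA, and several complex IV subunits exist as paired isoforms, one used in most tissues and one used in heart and skeletal muscle, in testis, or under low oxygen. In the embryonic heart the mitochondrial network grows and matures as the myocardium forms.

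Signals are given as log2 of the processed signal minus log2 of that array's 75th percentile, called scaled signal below, and differences are knockout minus wild type. Among the arrays, that of wild type pool 1 differed from the rest: 94.7% of its spots were well above background, against 53.3% to 63.2% on the other 7 arrays, and its 75th percentile was 4211 against 659 to 1134. Before scaling, the members' signals on that array were a median of 0.30 (log2) above the mean of the other wild type pools, with a median of 1.74 over all genes tested. After scaling they were a median of 2.27 below it. The comparison therefore used 4 knockout and 3 wild type pools, and values with all 8 arrays are given beside the results that turn on it. All knockout arrays lay in 1 row of the slide and all wild type arrays in the other, and the effect of row on the members cannot be told apart from genotype. The targeted gene checks the labels. Aldh1a2 had scaled signals of 2.26, 2.23, 2.11 and 0.28 in knockout pools 1, 2, 3 and 7 and of 3.44, 3.21 and 3.89 in wild type pools 2, 5 and 7, with no overlap. Its difference was -1.80 ± 0.50 (SE; exact permutation test over 35 assignments, two-sided p = 0.0286). Wild type pool 1, at 1.95, lay within the knockout range, and with all 8 arrays the exact p was 0.114. Its probe is at mm9 chr9:71143931-71143990, and whether that stretch is deleted in the mutant is not given in the sources used here.

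The question the comparison addresses is whether loss of Raldh2 went with a change in the respiratory chain of the outflow tract. No member passed the test: 0 of 89 had an adjusted p under 0.05 (limma, Benjamini-Hochberg over all 23760 genes; 0% of all genes were called), and the smallest adjusted p among members was 0.325. With all 8 arrays 0 of 89 members were called as well (0% of 24385 genes), with a smallest adjusted p of 0.735. Without adjustment, 7 of 89 members had p under 0.05, against 2526 genes in all. Of these 7, 4 were higher (4.49% of members, 6.22% of all genes) and 3 lower (3.37% of members, 4.41% of all genes). The groups did not overlap for 3 members that were higher and 3 that were lower, 3.37% of members in each direction, beside 6.61% of all genes for higher and 4.95% for lower. With all 8 arrays the groups did not overlap for Ndufa4, Sdhc and Ndufaf2, which were higher (3.37% of members, 4.09% of all genes), and for Ndufa4l2, which was lower (1.12% of members, 1.41% of all genes). These shares lie near or below those of all genes, so the counts are not a result about the members. After scaling, wild type pool 1 lay below the other wild type pools for Ndufa4, Sdhc and Ndufaf2. Adding that pool could therefore not make their groups overlap.

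On the 7 arrays the members' levels were otherwise close between the groups. The median difference over the 89 members was -0.015, beside 0.048 over all genes tested, with 37 members above 0 and 52 below. For 78 members, 87.6%, the 95% interval of the difference lay inside a 1.5-fold change either way, against 55.6% of all genes. Among related lists described below, this held for 68 of 73 mitochondrial ribosome genes, 19 of 21 import genes and 18 of 20 biogenesis regulators. It held for 18 of 21 tricarboxylic acid cycle genes and 32 of 37 assembly factors. For mitochondrially encoded subunits the count was 8 of 12, and for the low oxygen list 4 of 12. Such closeness was thus not particular to the members. On all 8 arrays the interval lay inside the bound for 1 of 89 members. There 84 of 89 were above 0 and the median difference was 0.54, so the closeness holds for the 7 arrays only. On the 7 arrays, the 11 members outside the bound were Ndufa4, Ndufa4l2, Ndufv3, Ndufaf2, Ndufaf4, Cox4i2, Cox6a2, Cox6b2, Cox7a1, Cox7b2 and Cox8b, named after their values were seen. They include all 6 tested isoforms of complex IV that are tied to particular tissues or to low oxygen, and neither gene of the Ndufa4 pair lies inside the bound. Lying outside the bound is not by itself a change. The intervals of Ndufaf4, Cox6a2, Cox6b2, Cox7a1, Cox7b2 and Cox8b include 0. The median SE was 0.24 for the tissue isoforms and 0.13 for all members. The plot of differences by complex shows a narrow band of most members with a few genes outside it.

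**Figure D1:**
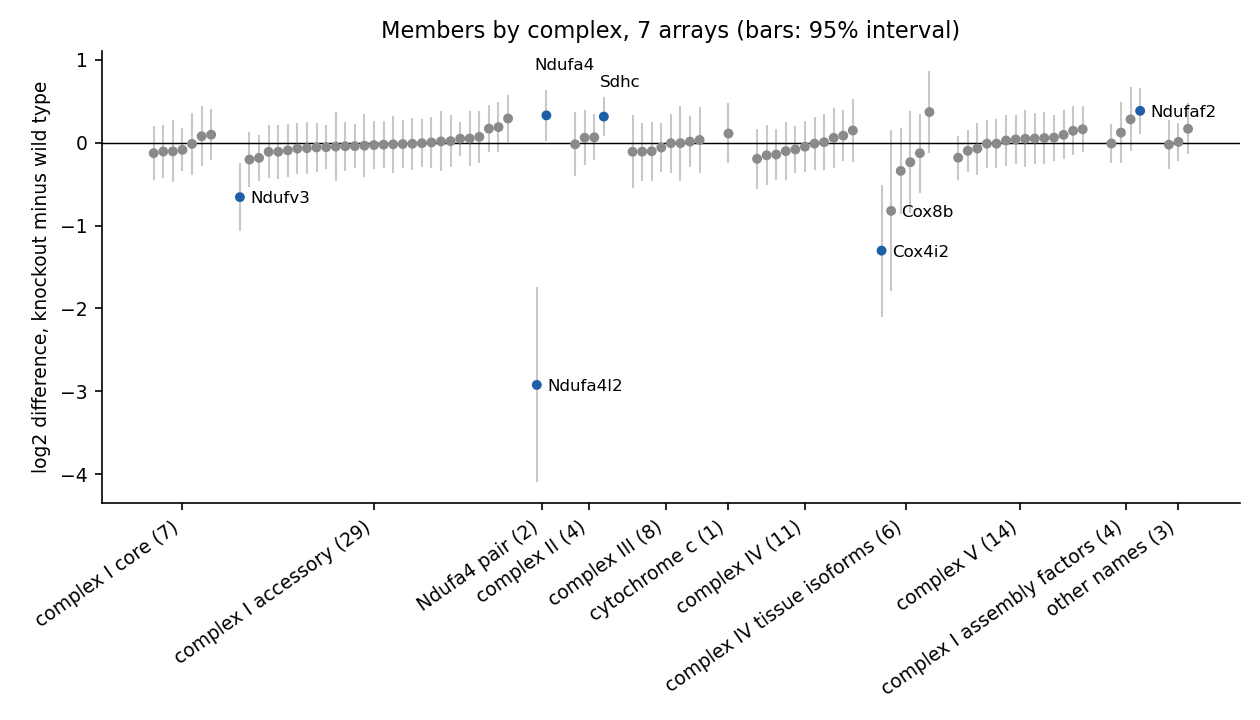
Difference between knockout and wild type (log2, vertical axis) for the 89 tested members, grouped along the horizontal axis by complex with the number of genes in brackets. Points are estimates and bars 95% intervals on 7 arrays, and blue points are the 6 genes whose groups did not overlap. Ndufa4l2 lies lowest at -2.92 and Cox4i2 next at -1.30, while the shared subunits of complexes III, IV and V lie between -0.20 and 0.16.

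The lowest member was Ndufa4l2, a paralogue of Ndufa4 whose transcript is known to be induced by low oxygen through hypoxia-inducible factor (HIF). Ndufa4 was first assigned to complex I and is now placed in complex IV. The results turn on the probes of this pair and of the Cox4 pair, so the first 30 of their 60 bases are shown, from the array files, 5′ to 3′. The Ndufv3 probe follows for the accessory subunit described later.
Ndufa4l2: tgtccctggggatcaaacagaagcagccgt
Ndufa4: ccgcacaattttccacttaagcaggaaata
Cox4i2: ctgagtcctgtctccactcccttctccaat
Cox4i1: aagcgaatgctggacatgaaggccaacccc
Ndufv3: ggtagaccccgatgttggttcccatgaatc
These probes lie in mm9 at chr10:126954149-126954208 (Ndufa4l2, plus strand), chr6:11850423-11850482 (Ndufa4, minus strand), chr2:152590711-152590770 (Cox4i2, plus strand), chr8:123197924-123197983 (Cox4i1, plus strand) and chr17:31668209-31668268 (Ndufv3, plus strand). The file places them from bases 900, 382, 664, 493 and 1517 of their transcripts. The whole 60-base probes of Ndufa4l2 and Ndufa4 share no run longer than 7 bases, and neither do those of Cox4i2 and Cox4i1. Whether each stretch is coding was not determined here, since no mm9 annotation was used.

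Ndufa4l2 had scaled signals of 0.013, -0.20, 1.04 and -1.21 in knockout pools 1, 2, 3 and 7, and of 3.25, 2.32 and 2.93 in wild type pools 2, 5 and 7. All 4 knockout values were below the wild type range. The gap was wider than the range of these wild type pools (SD 0.47) but narrower than that of the knockout pools (SD 0.92). The difference was -2.92 ± 0.50 (SE, n = 4 and 3), 7.58-fold lower, with an adjusted p of 0.325 in limma. Wild type pool 1 had 1.08, above the highest knockout pool by a small margin, and with all 8 arrays the difference was -2.48 ± 0.59. The tissue was measured in bulk, so fewer cells that express a gene and less of its RNA per cell cannot be told apart, here and for every member.

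Ndufa4 lay the other way. Its scaled signals were 5.50, 5.62, 5.61 and 5.33 in the knockout pools and 4.95, 5.33 and 5.28 in wild type pools 2, 5 and 7. Its lowest knockout pool and the highest wild type pool were nearly equal. The difference was 0.33 ± 0.13, 1.25-fold, with a limma adjusted p of 0.460.

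Cox4i2 was the second lowest member. It replaces Cox4i1, the common isoform of the largest nuclear-encoded subunit of complex IV, in lung and some other tissues, and its use is tied to low oxygen. Its scaled signals were 0.52, 0.74, 1.09 and -0.46 in the knockout pools and 1.86, 1.65 and 1.82 in wild type pools 2, 5 and 7. These wild type pools lay close together and above all knockout pools, of which pool 7 was lowest. The difference was -1.30 ± 0.34 (SE), 2.47-fold lower, with a limma adjusted p of 0.351. Wild type pool 1 had 0.34, inside the knockout range, and with all 8 arrays the difference was -0.94 ± 0.47. Cox4i1 had 6.96, 6.95, 7.21 and 6.94 in the knockout pools and 6.90, 7.28 and 7.45 in the wild type pools, which overlap, with a difference of -0.20 ± 0.15 (0.40 ± 0.55 with all 8 arrays).

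**Figure D2:**
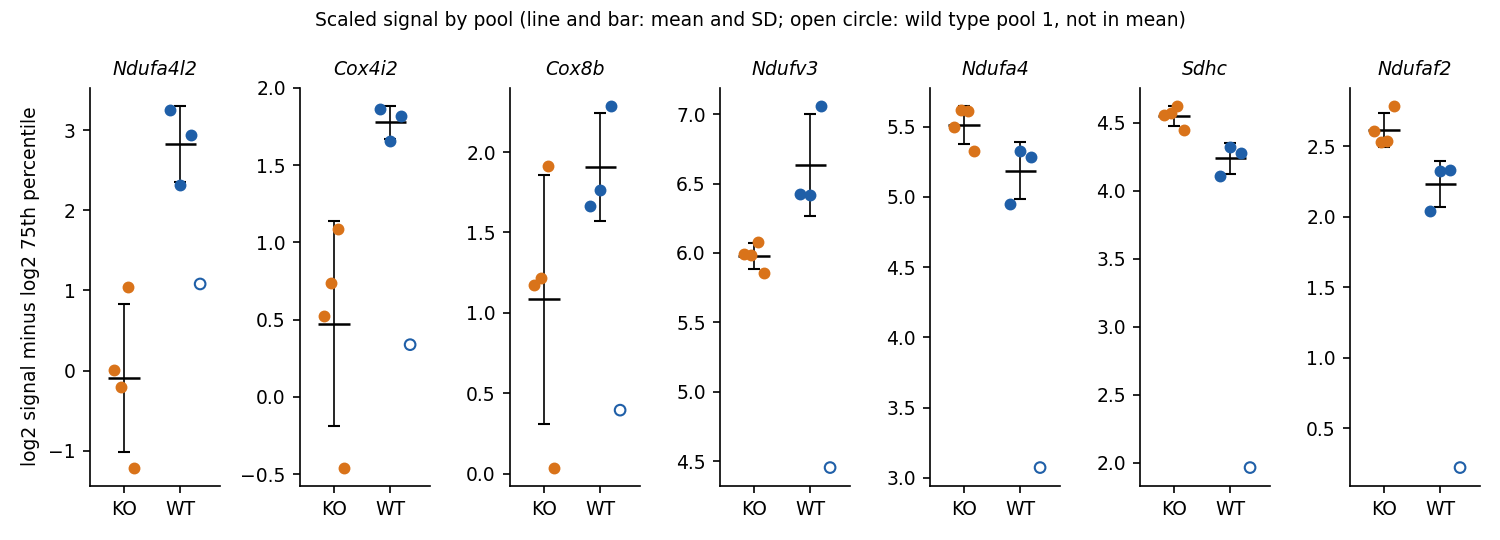
Scaled signal (vertical axis, log2 signal minus log2 75th percentile) of 7 members in each pool, knockout (KO) in orange and wild type (WT) in blue. Lines and bars are the mean and SD over 4 knockout and 3 wild type pools, and the open circle is wild type pool 1, which lies below the other wild type pools in every panel. Ndufa4l2, Cox4i2 and Ndufv3 are lower in all knockout pools, Ndufa4, Sdhc and Ndufaf2 are higher, and the groups overlap for Cox8b.

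The ratio of 2 isoforms on the same array does not change when the whole array is scaled by a constant, so paired isoforms were also compared as within-array log2 ratios. Such a ratio shows unequal change and not that one of the genes is unchanged. The pairs were formed from members chosen with earlier results of these data known, so the p-values of the ratios are not independent evidence. Of 7 pairs, all had a lower ratio in the knockout pools, and the groups did not overlap for 2. The changes were near 0 for Cox6b2 to Cox6b1 (-0.045, exact permutation p = 0.886) and Atp5g2 to Atp5g3 (-0.028, exact permutation p = 0.714). The sign of a ratio's change also depends on which gene is put first, so the shared direction is not a result. The log2 ratio of Ndufa4l2 to Ndufa4 was -5.49, -5.82, -4.57 and -6.54 in the knockout pools and -1.71, -3.01 and -2.35 in the wild type pools. It was lower by a wide margin in every knockout pool, with a change of -3.25 and an exact permutation p of 0.0286, the smallest that 35 assignments allow (0.100 after Benjamini-Hochberg adjustment over the 7 pairs). The ratio of Cox4i2 to Cox4i1 was -6.44, -6.21, -6.12 and -7.39 in the knockout pools and -5.04, -5.63 and -5.64 in the wild type pools. It too was lower in every knockout pool, with a change of -1.11 and the same exact permutation p of 0.0286 (0.100 adjusted). Wild type pool 1 lay with its group in both, at -1.99 and -4.48, and with all 8 arrays the changes were -3.34 and -1.35, each with an exact permutation p of 0.0286. On that array the ratio was above the mean of the other wild type pools in all 7 pairs, and of 15173 probes that were dim on the other 7 arrays, 87.5% were above background there. Its part in the ratios was not tested.

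**Figure D3:**
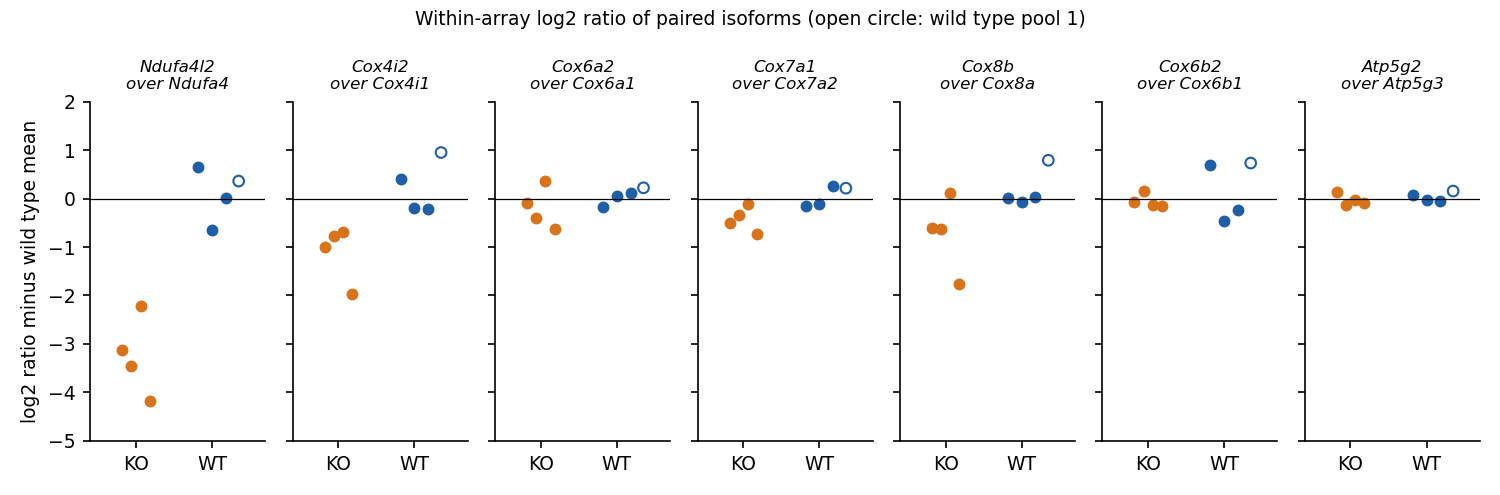
Within-array log2 ratio of 7 isoform pairs, shown relative to the mean of wild type pools 2, 5 and 7 (vertical axis), by genotype. Filled points are the 4 knockout and 3 wild type pools and the open circle is wild type pool 1. The knockout pools lie below the wild type pools without overlap for Ndufa4l2 over Ndufa4 and for Cox4i2 over Cox4i1, and overlap them for the 5 other pairs.

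The heart and skeletal muscle isoforms of complex IV were also lower on average on the 7 arrays, without passing any test. Cox8b, the muscle isoform of the small subunit VIII, had 1.17, 1.21, 1.91 and 0.039 in the knockout pools and 1.67, 1.77 and 2.29 in wild type pools 2, 5 and 7. Knockout pool 3 lay among the wild type pools and knockout pool 7 well below all others. The difference was -0.82 ± 0.41, and the change in its ratio to Cox8a was -0.72 (exact permutation p = 0.143, 0.25 adjusted over the 7 pairs). Cox7a1 had 4.49, 4.67, 4.87 and 4.30 in the knockout pools and 4.49, 5.00 and 5.29 in the wild type pools. Cox6a2 had 5.47, 5.26, 5.90 and 4.99 in the knockout pools and 5.20, 5.75 and 5.98 in the wild type pools. Both overlapped, with differences of -0.34 ± 0.22 and -0.24 ± 0.26. These turned with all 8 arrays to 0.19 ± 0.53 and 0.33 ± 0.56, while Cox8b kept its direction at -0.45 ± 0.51. Their ratios to the common isoforms Cox7a2 and Cox6a1 changed by -0.42 (exact permutation p = 0.114) and -0.19 (exact permutation p = 0.571). Of the testis isoforms, Cox6b2 was above background on all 7 arrays and differed by -0.13 ± 0.20. The other testis isoforms were dim. Cox7b2 differed by 0.37 ± 0.21 with signal above background on 5 of the 7 arrays, and Cox8c was not above background. Knockout pool 7 was the lowest of the 7 pools for Ndufa4l2, Cox4i2, Cox8b, Cox7a1 and Cox6a2, and it also had the lowest Aldh1a2.

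Markers of cardiomyocytes, the cells that use the muscle isoforms, moved in the same direction on the 7 arrays. All 12 of 12 markers listed were measured and lower in the knockout pools, with a median difference of -0.19, none called by limma, and no overlap for Myh6 and Nppa. Over all genes tested on the 7 arrays, 9852 of 23760 were lower. The direction of the markers turned with all 8 arrays: 10 of the 12 were higher, with a median of 0.38. Their mean centred log2 signal was -0.31, -0.18, 0.08 and -0.29 in the knockout pools and -0.13, 0.16 and 0.68 in the wild type pools. Nppa, at -2.59 ± 0.93 (SE), weighs heavily in this mean, and the next lowest marker was Ryr2 at -0.58. The log2 of the summed scaled signal of the 12 markers ran from 10.9 to 11.1 in the knockout pools. It ran from 10.9 to 11.5 in wild type pools 2, 5 and 7. Of 4 smooth muscle markers, 3 were lower, with a median of -0.15 (0.30 with all 8 arrays). Other lists were mixed. Of 6 endothelial markers, 4 were lower, with a median of -0.062 (0.32 with all 8 arrays), and Tie1 was higher without overlap. Of 8 cushion mesenchyme and crest markers, 5 were lower, with a median of -0.050 (0.65 with all 8 arrays). Of 4 epithelial markers, 2 were higher and 2 lower, and Krt8 was lower without overlap at -0.69. The part of these cell types in the members' values was not tested.

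Complex I was represented by 36 subunits, 7 of its core and 29 accessory ones. The core subunits carry the flavin and the iron-sulfur clusters on the path of electrons. All 7 had intervals inside the 1.5-fold bound, with differences from -0.13 to 0.095. Ndufs1, the largest core subunit, had 5.61, 5.73, 5.82 and 5.43 in the knockout pools and 5.36, 5.77 and 5.85 in the wild type pools, a difference of -0.016 ± 0.16. Ndufv1, which binds NADH and the flavin, differed by 0.076 ± 0.15. The accessory subunits had a median of -0.031, and 28 of 29 lay inside the bound. Ndufab1, the mitochondrial acyl carrier protein, named after its values were seen, differed by 0.29 ± 0.12 with an unadjusted limma p of 0.0477.

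Ndufv3, a small accessory subunit of the NADH-binding module that is made in a long and a short form, was the exception. It had 5.99, 5.98, 6.08 and 5.86 in the knockout pools and 6.43, 6.42 and 7.06 in wild type pools 2, 5 and 7. All knockout pools lay close together and below these, while wild type pool 7 was well above the other 2. The difference was -0.66 ± 0.18 (SE), 1.58-fold lower, with a limma adjusted p of 0.353. A second probe of the gene, at chr17:31665148-31665207 in mm9, gave 1.75, 1.82, 1.86 and 1.60 in the knockout pools and 2.36, 2.20 and 2.64 in the wild type pools, again without overlap, with a difference of -0.65 ± 0.13. The array of wild type pool 1, at 4.45 and 1.44, was below all knockout pools on both probes, and with all 8 arrays the difference on the first was -0.11 ± 0.52.

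Of the complex I assembly factors that carry the Nduf name, 4 were measured; they help to build the complex and are no part of it. Ndufaf2 had 2.61, 2.53, 2.54 and 2.79 in the knockout pools and 2.04, 2.32 and 2.33 in the wild type pools. The groups did not overlap, and the difference was 0.38 ± 0.12 (limma adjusted p = 0.388). The 4 had a median of 0.20, and 37 assembly factors of all complexes, listed separately, had a median of 0.0072.

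Complex II, succinate dehydrogenase, also belongs to the tricarboxylic acid cycle. Sdhc, one of its membrane anchors, had 4.56, 4.57, 4.62 and 4.45 in the knockout pools and 4.11, 4.32 and 4.28 in the wild type pools. The groups did not overlap, with a difference of 0.31 ± 0.10 (limma adjusted p = 0.388). A second Sdhc probe overlapped, at 4.25, 4.30, 4.56 and 3.92 against 4.01, 4.49 and 4.28, with a difference of -0.0040 ± 0.18. The 2 probes of this gene thus disagree. The catalytic subunit Sdha differed by 0.063 ± 0.12, the iron-sulfur subunit Sdhb by 0.058 ± 0.14 and the other anchor Sdhd by -0.021 ± 0.16.

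Complex III lay near 0 throughout, and its electron acceptor did so on its brightest probe. The 8 genes of complex III ranged from -0.11 to 0.031. Cyc1, its cytochrome c1, differed by -0.0073 ± 0.19, and Uqcrfs1, the Rieske iron-sulfur protein, by 0.011 ± 0.13. Cytochrome c itself, Cycs, had 6.50, 6.60, 6.49 and 6.58 in the knockout pools and 6.06, 6.61 and 6.61 in the wild type pools. Its knockout pools lay between wild type pool 2 and the other 2, with a difference of 0.12 ± 0.15. Other Cycs probes gave 0.19 ± 0.18 and, at a much lower signal, 0.52 ± 0.24, both with overlapping groups.

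The 11 subunits of complex IV that most tissues share had a median of -0.050 and ranged from -0.20 to 0.15. Among the common isoforms, Cox6a1 differed by -0.050 ± 0.13, Cox7a2 by 0.083 ± 0.13 and Cox8a by -0.10 ± 0.15. Cox7a2l, a relative of Cox7a2 that joins complexes III and IV into supercomplexes, differed by -0.14 ± 0.13. Other Cox7a2l probes gave -0.27 ± 0.12, without overlap, and -0.21 ± 0.14, with overlap.

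The 14 genes of complex V ranged from -0.18 to 0.16 with a median of 0.042. The alpha and beta subunits of its catalytic head, Atp5a1 and Atp5b, differed by 0.038 ± 0.12 and 0.059 ± 0.12. The membrane ring is made of identical proteins encoded by a small gene family. Atp5g2 and Atp5g3 of that family differed by -0.10 ± 0.11 and -0.072 ± 0.13, and their ratio changed by -0.028 (exact permutation p = 0.714). Atp5g1 has no probe under that name. The 3 genes whose names match the rule although they encode no subunit (Atp5s, Atp5sl and Cox4nb) lay between -0.026 and 0.17.

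The shared subunits varied together from pool to pool, and more among the wild type pools than between genotypes. Of 74 subunits shared by tissues, 64 had their lowest value in wild type pool 2 and 58 their highest in wild type pool 7. Their median SD was 0.073 over the knockout pools and 0.25 over the wild type pools, and the wild type SD was the larger in 71 of 74, 95.9%, against 54.6% of all genes. Subunits measured on the same arrays are not independent of each other. The array of wild type pool 7 had the lowest 75th percentile of all arrays, 659, against 901 for wild type pool 2. It also had the lowest share of spots well above background, 53.3%, against 62.2% for wild type pool 2. The part of the scaling in the spread between pools was not tested. Complex I had mean centred signals of -0.031, 0.0091, 0.034 and -0.077 in the knockout pools and -0.23, 0.087 and 0.20 in wild type pools 2, 5 and 7. All knockout pools thus lay between the wild type ones, as they did for complexes III, IV and V. Uqcrc2, a core protein of complex III, has 10 spots of 1 probe on each array, with a spot SD of 0.025 to 0.050 (log2). Its SD over pools was 0.12 in the knockout and 0.33 in the wild type group. Spots on 1 array share that array's RNA and scaling, so the spot SD does not measure technical spread between arrays.

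**Figure D4:**
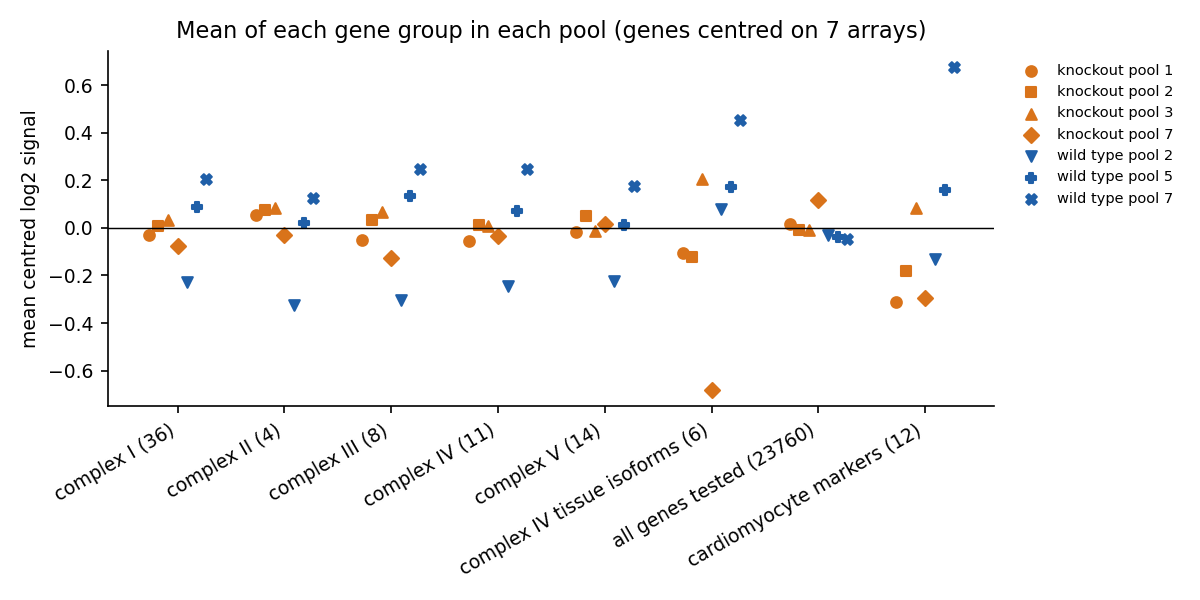
Mean centred log2 signal (vertical axis) of each complex, of the complex IV tissue isoforms, of all genes tested and of 12 cardiomyocyte markers in the 4 knockout (orange) and 3 wild type (blue) pools, with the number of genes in brackets. Each gene was centred on its mean over the 7 arrays. Wild type pool 2 is lowest and wild type pool 7 highest for complexes I to V, while knockout pool 7 is lowest for the tissue isoforms at -0.68.

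Markers of cardiomyocytes and of blood cells varied over the same pools. Cardiomyocyte markers were highest in wild type pool 7, as the shared subunits were. The 6 of 7 erythroid markers measured had mean centred signals of 0.80, -1.27 and -0.64 in wild type pools 2, 5 and 7. Among these wild type pools they were highest in the pool in which the subunits were lowest. Over the knockout pools they were 0.32, 0.86, -0.57 and 0.50. They were thus higher still in knockout pool 2, where the shared subunits had a mean of 0.025, against -0.25 in wild type pool 2. The log2 of the summed erythroid signal ran from 9.19 to 10.1 in the knockout and from 8.82 to 10.04 in the wild type pools. The erythroid knockout minus wild type median was 0.76, with 6 of 6 higher and none without overlap. Neuronal markers were higher in 4 of 4, with a median of 0.58 and no overlap for Elavl3 and Stmn2, and a log2 summed signal of 2.52 to 2.83 in the knockout and 1.80 to 2.55 in the wild type pools. Macrophage markers were also higher in 4 of 4, with a median of 0.36 and overlapping groups (2.05 to 2.99 and 1.82 to 2.94). The 3 medians with all 8 arrays were 1.30, 0.86 and 0.034. The part of these cells in the members' values and spread was not tested.

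Between probes of the same gene the agreement was limited at these small sizes. Of 24 members with more than 1 kept probe, 11 had probes of opposite sign. The median gap between a gene's probes was 0.091 and the widest 0.44, in Cox7c. For differences of this size the direction therefore depends on the probe, whereas the 2 probes of Ndufv3 gave nearly the same value.

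The genes around the respiratory chain gave the context. Of 12 of 13 measured genes that act on mitochondria under low oxygen, 10 were lower, 5 of them without overlap, and 1 was higher without overlap, where the shares over all genes were 4.95% and 6.61%. None was called by limma, and the median was -0.43. This list and those below were chosen with earlier results of these data known, so their counts are not independent evidence. Bnip3 and Higd1a are described because they had the smallest unadjusted p of the list. Bnip3, a receptor for the removal of mitochondria, had 5.96, 5.91, 6.20 and 5.27 in the knockout pools and 7.09, 6.62 and 7.49 in the wild type pools. It was lower in all knockout pools, with a difference of -1.23 ± 0.27. Higd1a, a small protein that binds complex IV, had 4.70, 4.71, 4.79 and 4.50 against 5.30, 5.25 and 5.77, likewise without overlap, with a difference of -0.77 ± 0.15. The list holds neither Ndufa4l2 nor Cox4i2. With all 8 arrays its median was 0.045, and Bnip3 and Higd1a differed by -0.71 and -0.27.

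The other lists lay close to 0 on the 7 arrays. Of 20 regulators of mitochondrial biogenesis, 13 were higher, 4 without overlap (6.61% of all genes), with a median of 0.082. Nrf1, a factor that binds many promoters of respiratory genes, had 2.21, 2.08, 1.97 and 2.25 in the knockout pools and 1.90, 1.84 and 1.74 in the wild type pools, a difference of 0.30 ± 0.11. Gabpa, an ETS factor with many of the same targets, differed by 0.23 ± 0.086, also without overlap. The 73 measured proteins of the mitochondrial ribosome had a median of 0.054 and the 21 of protein import 0.084, each with no gene called by limma. The 21 genes of the tricarboxylic acid cycle and pyruvate entry had a median of -0.032. Among them Pdhx, a binding protein of the pyruvate dehydrogenase complex, differed by 0.38 ± 0.11 without overlap. With all 8 arrays the medians were 0.49 for biogenesis, 0.58 for the ribosome, 0.63 for import and 0.50 for the tricarboxylic acid cycle, beside 0.54 for the members.

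The subunits encoded in mitochondrial DNA had a median of 0.11 over 12 genes, 7 of them higher and 5 lower, with none called by limma (median 0.58 with all 8 arrays). The lowest was ND6 at -0.70, named after its values were seen, and its groups overlapped. ND4L and ND4, both of complex I, did not overlap. ND4L had 6.18, 6.36, 6.19 and 6.34 in the knockout pools and 5.68, 6.01 and 5.89 in the wild type pools, a difference of 0.41 ± 0.11, and ND4 differed by 0.25 ± 0.090. RNA was extracted without DNase, and the share of these signals that comes from mitochondrial DNA was not tested.

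**Figure D5:**
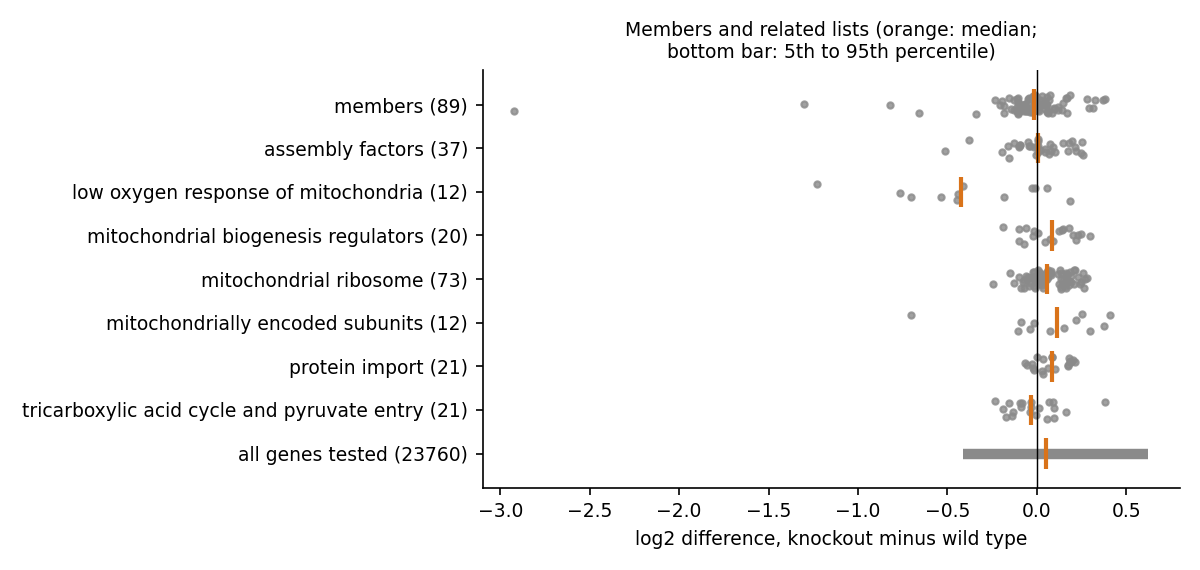
Difference between knockout and wild type (log2, horizontal axis, 7 arrays) for the 89 members and for 7 related lists, with the number of measured genes in brackets. Grey points are genes, orange lines medians, and the lowest bar spans the 5th to 95th percentile of all 23760 genes. The low oxygen list has a median of -0.43 and the members one of -0.015.

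Promoters were compared for a property the name rule did not use. RefSeq promoters (GRCm38.p6) matched 73 of the 90 members, and the 250 bases before the start site were searched on both strands. The core site of NRF1, CGCATGCG, stood in 9 of 73 (12.3%) members' promoters and in 1.75% of 27018 promoters of all genes. The ETS site CCGGAAG stood in 13 members (17.8%, against 7.83% of all), the YY1 site AAGATGGCG in 2 (2.74% against 0.707%) and the HIF core ACGTG in 17 (23.3% against 18.5%). The NRF1 site does not overlap the others in the promoters shown. A match is a description of the letters and not a bound site. The 9 members with an NRF1 match had a median difference of 0.055 and the 64 without one -0.016, both near 0.

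Cycs and Cox6a1 show promoters of shared genes that hold the NRF1 core, and Cox8b the promoter of a muscle isoform that does not. They are examples and not a contrast of the 2 kinds. Only 8 of 62 matched promoters of shared subunits (12.9%) hold that core, so most of those lack it too. The 250 bases before the start site are given 5′ to 3′ on the gene's strand, with matches to any of the 4 motifs in capitals.
Cycs: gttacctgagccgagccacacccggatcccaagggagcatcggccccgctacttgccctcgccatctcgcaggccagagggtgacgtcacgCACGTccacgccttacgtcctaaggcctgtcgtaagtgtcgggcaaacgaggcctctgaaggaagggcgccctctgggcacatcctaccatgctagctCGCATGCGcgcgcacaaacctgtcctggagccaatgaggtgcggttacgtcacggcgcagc
Cox6a1: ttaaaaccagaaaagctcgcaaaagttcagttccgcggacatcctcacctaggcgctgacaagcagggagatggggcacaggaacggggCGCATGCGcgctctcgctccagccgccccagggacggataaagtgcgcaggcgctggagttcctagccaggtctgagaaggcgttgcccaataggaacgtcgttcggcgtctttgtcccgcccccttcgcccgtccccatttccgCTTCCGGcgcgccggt
Cox8b: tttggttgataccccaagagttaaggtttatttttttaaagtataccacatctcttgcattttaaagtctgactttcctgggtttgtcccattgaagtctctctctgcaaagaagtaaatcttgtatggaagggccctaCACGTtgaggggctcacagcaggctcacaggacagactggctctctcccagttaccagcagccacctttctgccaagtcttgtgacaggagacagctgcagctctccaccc
They lie in GRCm38.p6 at chr6:50566570-50566819 (Cycs), chr5:115348959-115349208 (Cox6a1) and chr7:140900447-140900696 (Cox8b), all on the minus strand. Counted from the start site, the NRF1 core of Cycs begins at -61 and a HIF core at -159. In Cox6a1 the NRF1 core begins at -161 and an ETS site at -16, and in Cox8b the capitals are a HIF core at -111. Promoters of Ndufa4l2, Cox4i2 and Sdhc were not matched, and those of Ndufa4 and Ndufv3 hold none of the 4 motifs in this window.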

How the data were processed

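The authors deposited 1 scanner file per one-colour Agilent array and a matrix. Per the file headers, the processed signal is a background-subtracted, detrended intensity from Feature Extraction 10.7.3.1, not scaled between arrays. The file of knockout pool 1 holds rounded signals. Spots of 1 probe were averaged (55681 probes, of which 26056 took a RefSeq symbol), log2 transformed and set against the array's 75th percentile. Probes detected well above background in 3 or more arrays of either group were kept, and each gene was represented by its brightest kept probe. Groups were compared with limma 3.58.1 in R 4.3.3 on 7 arrays (lmFit, eBayes, two-sided, Benjamini-Hochberg 0.05), and single values with exact permutation tests. The script was tested on simulated data. The number of arrays limits the precision. Members and lists were chosen with earlier results of these data known. Genes named were a set of 25 members covering each complex and the isoform pairs, any member past the threshold, up to 3 non-overlapping members with the largest difference in complexes I, III, IV, V and other names, and the 2 genes of each list with the smallest p. Alternatives varied scaling, background, filter, probe choice, blocks and pools.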

Additional observations from a re-analysis of the deposited data

Results flagged for a closer look

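Of 52 groups of 4 values checked for a sample far from the others, 5 held one, where chance gives about 1 in 20. The median processed signal of the array of wild type pool 1 was 2023, against 40.0 to 56.9 on the other wild type arrays. The mean centred signal of complex V was -2.31 in that pool, against -0.22 to 0.18 in the other wild type pools. Cox4i1 had a scaled signal of 7.21 in knockout pool 3, above 6.94 to 6.96 in the other knockout pools. Sdhd had 5.78 in knockout pool 7, below 5.95 to 5.99 in the others. Aldh1a2 had 0.28 in knockout pool 7, below 2.11 to 2.26 in the others.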

How the results depend on the processing

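No member was called in any of the 22 alternatives, with a smallest adjusted p of 0.0629. Over all genes the number called was 8 with all 8 arrays under array weights, 22 with median scaling, and 0 to 7 when 1 pool was left out (7 without wild type pool 5, 1 without knockout pool 7). With all 8 arrays the median difference was 0.54 for all members, 0.54 for complex I, 0.64 for II, 0.53 for III, 0.52 for IV, 0.59 for V, 0.081 for the tissue isoforms of complex IV and 0.68 for the complex I assembly factors. Median scaling, which moved the median of all genes to -0.17, gave -0.23 for all members, -0.25 for I, -0.16 for II, -0.25 for III, -0.27 for IV, -0.18 for V and -0.020 for the assembly factors. The assembly factors had 0.47 with quantile normalization of all 8 arrays, and 0.031 to 0.30 when 1 pool was left out, lowest without wild type pool 2. Leaving out 1 pool moved the median of all members between -0.14 (without wild type pool 2) and 0.073. The direction of the small median differences thus depends on scaling and pools, and the cause was not tested.

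With the pool number as a replicate block on 7 arrays the median of all members was 0.017 and 0 genes were called. With the replicate block on all 8 arrays the medians were 0.73 for all members and for complexes I and III, 0.86 for II, 0.70 for IV, 0.79 for V and 0.94 for the assembly factors. Pools of the same number deviated from their group means with correlations of 0.046 (pool 2) and -0.037 (pool 7) on 7 arrays, and of -0.15 (pool 1), 0.32 (pool 2) and -0.41 (pool 7) on 8. These gave no sign of pairing, and whether pools of 1 number share a litter is not stated.

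Among 26 named members, 10 kept their sign in every alternative on 7 or fewer arrays. Of the 6 whose groups did not overlap, 5 did, and Sdhc had -0.0040 on its second probe. Ndufa4l2 ranged from -3.80 to -2.55 and Cox4i2 from -1.70 to -0.99 in these. The ratio of Cox6b2 to Cox6b1 changed by 0.41 with quantile normalization of all 8 arrays. The number of arrays, and for Cox7b2 and Cox8c signal over background, limits the precision.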
